A study of Mus musculus with 16 samples.

Results

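Lungs bearing HKP1 tumours were compared between the higher and the lower radiation dose given together with an antibody against PD-1: 8 Gy with anti-PD-1 against 4 Gy with anti-PD-1. The 3 libraries titled for each of these groups were taken, 6 of the 16 libraries of the series. HKP1 is a mouse lung adenocarcinoma line, and every mouse was a C57BL/6 that carried this tumour, so both groups share the tumour, the antibody and irradiation and differ in dose. Whole lungs were ground 24 to 48 hours after irradiation, each library was a pool of 3 to 4 mice, and 1 µg of total RNA was used per library. The hour and pool size of each library are not given. If either differed between the groups, its effect cannot be told apart from that of dose. The remaining groups were IgG with 8 Gy (3 libraries), IgG with 4 Gy (2 libraries), anti-PD-1 with 0 Gy (2 libraries) and IgG with 0 Gy (3 libraries). The labels give no clone or dose of the antibodies and no fractionation of the radiation, and they leave unsaid whether different pools hold different mice, so p-values reflect only how much these pools vary, which may be technical.

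PD-1 is an inhibitory receptor on activated T cells, and antibodies that block it release those cells from the restraint its ligands impose. Radiation breaks DNA, which activates the transcription factor p53, halts the cell cycle and can induce interferons. The lung adds cell types of its own: club cells, the secretory cells of the airway that are marked by Scgb1a1 and named in the study's title; ciliated cells; the flat alveolar type 1 and the surfactant-making type 2 cells; and a dense capillary bed. A ground lung mixes the RNA of all of these with that of tumour and immune cells, so fewer cells of a type and less RNA per cell cannot be told apart in any result below. Lung RNA was present throughout: Scgb1a1, the surfactant gene Sftpb and the type 1 marker Ager were each at 60.8 CPM or more in all 6 libraries, a unit that divides a gene's reads by the depth of its library.

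The 4 Gy libraries stood apart from the rest before any test. On the first principal component, which took 46.7% of the variance, the 3 libraries of 8 Gy with anti-PD-1 lay at 46.5, 8.4 and 18.9 and those of 4 Gy with anti-PD-1 at -46.8, -81.5 and -98.3, while all other libraries lay between -32.9 and 51.9. Genes without a read numbered 2779, 2650 and 3788 at 8 Gy and 2504, 6086 and 5315 at 4 Gy. A single read was worth 0.01725 to 0.02981 CPM at 8 Gy and 0.018 to 0.0418 CPM at 4 Gy, so 4 Gy replicate 2 was the shallowest library of the series. Results are therefore also given with replicate 1 as the sole 4 Gy library. Within the group, however, replicates 2 and 3 correlated best (0.9843, against 0.9717 and 0.9649 with replicate 1). Array quality weights, which limma lowers for a library that departs from its group, were 0.306, 1.52 and 0.717 for replicates 1 to 3. The first of these was the lowest of the 16 libraries. Which of the 3 libraries deviates was not tested. The libraries' sheet numbers run from 34 to 36 at 8 Gy and from 28 to 30 at 4 Gy, so an effect of their order and of dose cannot be told apart.

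The test was limma on log2(CPM + 0.5), over the 17546 genes with at least 1 CPM in 2 or more libraries, and a gene was called at a Benjamini-Hochberg adjusted p under 0.05. Of all tested genes, 4278 were higher at 8 Gy under anti-PD-1 (24.4%) and 3062 were lower (17.5%), 41.8% in all. In 29.5% of tested genes all 3 libraries of 8 Gy exceeded all 3 of 4 Gy, and in 23.6% all 3 were below. These shares are the background for the counts below. The excess of rises over falls depends on the scaling: with library medians set equal there were 3566 rises and 3712 falls. With replicate 1 as the sole 4 Gy library, 4263 of the 4278 rises and 2905 of the 2911 falls tested in that fit kept their sign. Replicate 1 also took part in the calls, so this is no independent check. A lone 4 Gy library leaves that fit little power, so its calls cannot be set beside those above. Single libraries also moved the counts: without 8 Gy replicate 1 there were 2667 rises and 1823 falls, and without 4 Gy replicate 3 there were 2053 and 1881.

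Most tested genes of the airway and alveolar epithelium, from club and ciliated cells to both alveolar cell types, fell at 8 Gy relative to 4 Gy under anti-PD-1. Of 23 club cell genes tested, 21 fell and 1 rose, with a median log2 fold change of -2.11. Over all tested genes the median was 0.09. Scgb1a1 (mm10, chromosome 19, 9083636 to 9087958, minus strand), which encodes the secretoglobin that defines club cells, measured 701, 3890 and 2200 CPM in the 8 Gy libraries and 6870, 6480 and 12300 CPM in the 4 Gy libraries. The doses did not overlap, and the log2 fold change was -2.17 ± 0.57 (SE, limma, adjusted p = 0.0095). The call rested on 4 Gy replicate 3, without which the fold change was -1.88 (adjusted p = 0.0508). Within the 8 Gy group, replicate 1 lay far below the other libraries for this gene. Scgb3a1, a second secretoglobin, fell by 2.93 ± 0.51 on the log2 scale, and Hp, which encodes the haemoglobin-binding protein haptoglobin, fell by 2.05 ± 0.30. Cbr2, a lung carbonyl reductase and among the 10 largest falls of all genes, measured 93.8, 373 and 259 CPM at 8 Gy and 1160, 1860 and 3230 CPM at 4 Gy, for a log2 fold change of -3.19 ± 0.70. The club gene that rose was Gsta4, a glutathione transferase, by 1.02 on the log2 scale, a call lost without 8 Gy replicate 3 (adjusted p = 0.0546) or 4 Gy replicate 3 (0.0585).

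Summed over the club cell list, the 8 Gy libraries held 1920, 7190 and 4590 CPM and the 4 Gy libraries 13800, 14700 and 25100 CPM. In the unirradiated libraries of both antibodies the sum ran from 1950 to 7210 CPM. The 8 Gy libraries thus lay within or just under the unirradiated range, and the 4 Gy libraries were above it. With replicate 1 as the sole 4 Gy library the list's median was -1.80.

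Alveolar genes behaved in the same direction. Of 20 type 2 genes, 13 fell and 1 rose (median -1.40), and of 17 type 1 genes, 14 fell and 1 rose (median -1.57). Sftpb, a surfactant protein gene, measured 250, 434 and 302 CPM at 8 Gy and 1240, 2540 and 2600 CPM at 4 Gy, and the log2 fold change was -2.65 ± 0.47 (adjusted p = 0.00306). Sftpd, which encodes a surfactant protein of host defence, measured 53.4, 94.3 and 81 CPM at 8 Gy and 248, 340 and 386 CPM at 4 Gy. For both genes the doses did not overlap. Ager, the receptor gene that marks type 1 cells, measured 60.8, 194 and 128 CPM at 8 Gy and 597, 628 and 584 CPM at 4 Gy, and its log2 fold change was -2.39 ± 0.43 (adjusted p = 0.0032). Here the 4 Gy libraries lay close together and the spread was among the 8 Gy libraries. Hopx, a homeodomain gene of type 1 cells, fell by 1.57 ± 0.30 and Scnn1g, a subunit of the epithelial sodium channel, by 2.19 ± 0.42. The list members that rose were Il33, the alarmin of type 2 cells, by 1.13 ± 0.17, and Sema3e, a guidance factor, by 0.88. Summed, the type 2 list held 2750 to 4250 CPM at 8 Gy, 11000 to 13600 CPM at 4 Gy and 2200 to 6890 CPM in the unirradiated libraries. The type 1 list held 473 to 914, 1780 to 2110 and 575 to 1260 CPM. For both lists the 4 Gy libraries lay above the unirradiated range, and the 8 Gy libraries lay within it or, for type 1, partly under it. With replicate 1 alone at 4 Gy, the medians were -1.30 for type 2 and -1.90 for type 1 genes. Without 8 Gy replicate 1, 9 type 1 genes fell, and Sema3e lost its call without 8 Gy replicate 3 (adjusted p = 0.0658) or 4 Gy replicate 3 (0.0754).

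Ciliated cell genes fell in 14 of 20 cases and rose in none, with a median of -1.90. Foxj1, the master regulator of motile cilia, measured 7.43, 23.7 and 21.6 CPM at 8 Gy and 62.8, 82.8 and 112 CPM at 4 Gy, for a log2 fold change of -2.38 ± 0.45 (adjusted p = 0.00344). Rsph1, a radial spoke gene, fell by 2.64 ± 0.51 and Dynlrb2, a dynein light chain gene, by 2.50 ± 0.49. All 20 members were on the lower side at 8 Gy. Without 8 Gy replicate 1 or without 4 Gy replicate 3, 8 of them fell. The list summed to 353 to 498 CPM at 8 Gy, 759 to 1060 CPM at 4 Gy and 282 to 645 CPM in the unirradiated libraries. Here too the 8 Gy libraries lay within the unirradiated range and the 4 Gy libraries above it. Among the largest falls of all genes was Cfap65, a gene of the sperm and cilia axoneme, by 3.06 ± 0.79. Epithelial keratin and adhesion genes, which tumour cells of epithelial origin can share, fell in 8 of 14 cases and rose in 1, and their summed level overlapped between doses, at 2840 to 3920 CPM in the 8 Gy libraries and 2480 to 3190 CPM in the 4 Gy libraries.

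**Figure D1:**
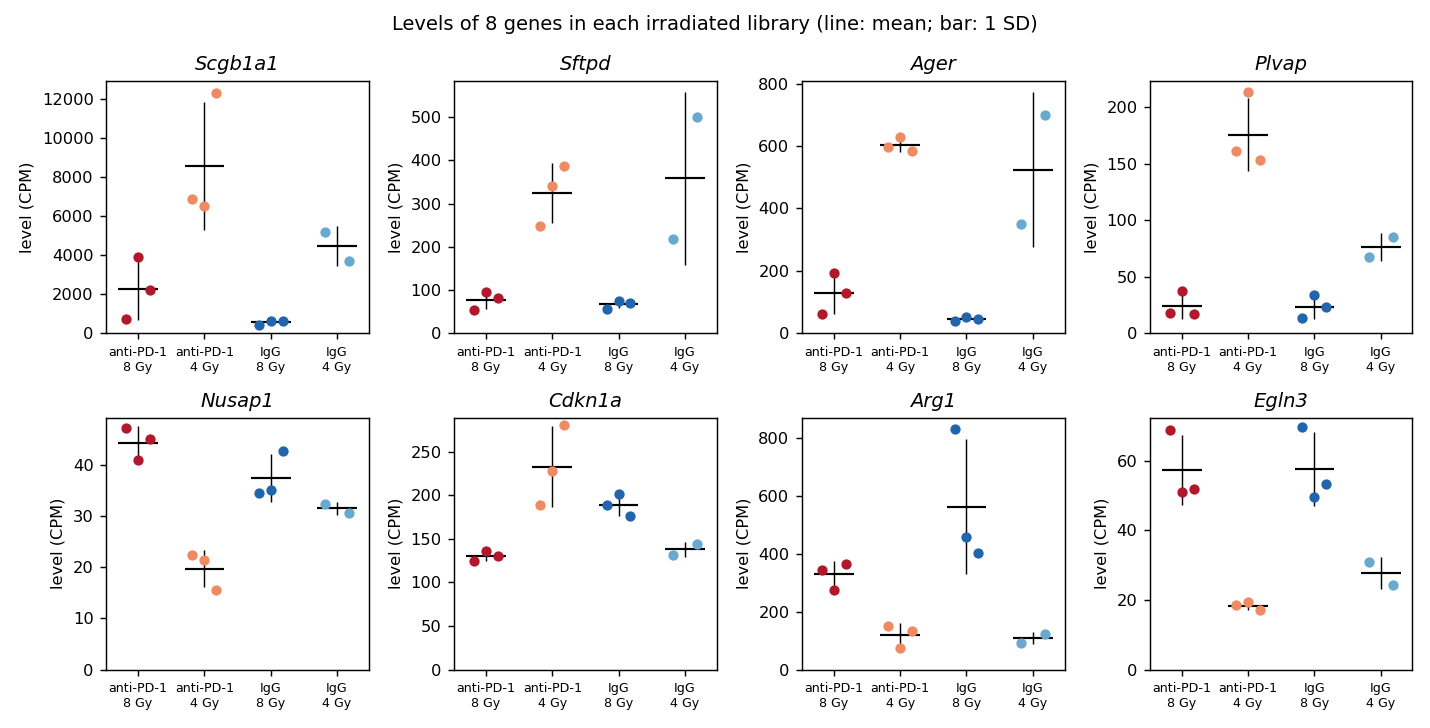
Level in CPM of 8 genes in each irradiated library, with 3 libraries of 8 Gy and 3 of 4 Gy under anti-PD-1 and 3 of 8 Gy and 2 of 4 Gy under IgG; points are libraries, lines are means and bars are 1 SD. Under anti-PD-1 no library of one dose overlaps the other dose for any of the 8 genes, with Scgb1a1, Sftpd, Ager, Plvap and Cdkn1a lower at 8 Gy and Nusap1, Arg1 and Egln3 higher.

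The vessel wall followed the epithelium. Of 22 genes of blood vessel endothelium, 20 fell and none rose, with a median of -2.09, and all 22 were on the lower side at 8 Gy. Plvap, which forms the diaphragms of fenestrated endothelium, measured 17.7, 37 and 17 CPM at 8 Gy and 161, 213 and 153 CPM at 4 Gy, and the log2 fold change was -2.93 ± 0.53 (adjusted p = 0.00322). Car4, the carbonic anhydrase of lung capillaries, measured 14.3, 18.4 and 10.9 CPM at 8 Gy and 88.1, 95.1 and 100 CPM at 4 Gy. Both genes separated the doses without overlap. Cdh5, which encodes the junction protein VE-cadherin, fell by 1.25 ± 0.23, and Aplnr, the apelin receptor gene, by 1.70 ± 0.30. Summed over the list, the 8 Gy libraries held 348 to 524 CPM and the 4 Gy libraries 1550 to 1890 CPM. The unirradiated libraries ran from 276 to 1150 CPM. With replicate 1 alone at 4 Gy the median was -2.21.

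Lymphatic vessel genes were mixed: of 8, 3 fell and 1 rose. Ccl21a, a chemokine of lymphatic endothelium that draws T cells and dendritic cells, fell by 2.18 ± 0.29 on the log2 scale and Lyve1, a hyaluronan receptor gene, by 0.83 ± 0.19, and the third fall was Flt4, the VEGFR3 gene, by 1.17. Flt4 lost its call without 8 Gy replicate 1 or 3 or 4 Gy replicate 2 or 3 (adjusted p = 0.0529 to 0.066). Prox1, the transcription factor of lymphatic identity, went the other way, at 8.81, 7.6 and 10.1 CPM in the 8 Gy libraries and 3.38, 3.17 and 2.24 CPM in the 4 Gy libraries (1.45 ± 0.28, adjusted p = 0.00351). Smooth muscle and pericyte genes fell in 10 of 14 cases and rose in none (median -1.51), with Notch3, a receptor gene of mural cells, down by 1.62 ± 0.23 and Tagln, an actin-binding protein gene of smooth muscle, by 1.64 ± 0.29. Of 23 fibroblast and matrix genes, 9 fell and 1 rose. Tcf21, a transcription factor of lung lipofibroblasts, fell by 2.25 ± 0.40, Mfap4, an elastic fibre gene, by 2.32 ± 0.48, and Inmt, a methyltransferase gene, by 2.93 ± 0.60, while Npnt, a basement membrane gene, rose by 0.99. The fibroblast list as a whole had a median of -0.44, which was 0.02 with replicate 1 alone at 4 Gy. In it 5 genes fell without 8 Gy replicate 1 or 4 Gy replicate 2, 6 without 8 Gy replicate 3, and Npnt lost its call without replicate 3 of either dose (adjusted p = 0.0553 for 8 Gy and 0.0744 for 4 Gy).

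Heart muscle genes moved with these lists. Of 10 such genes, 7 fell and none rose (median -2.01). Myh6, the atrial myosin heavy chain gene, measured 0.236, 0.58 and 0.271 CPM at 8 Gy and 4.41, 8.88 and 10.5 CPM at 4 Gy, and Myl7, an atrial myosin light chain gene, fell by 2.39 ± 0.38. Summed, the heart muscle list held 27.9 to 34.5 CPM in the 8 Gy libraries and 60.3 to 121 CPM in the 4 Gy libraries. The unirradiated libraries held 36.7 to 54.2 CPM, and none of the 10 genes was without reads in the 6 anti-PD-1 libraries compared. Some values rested on few reads: Sln, of this list, measured 0.0518, 0.0727 and 0.0895 CPM at 8 Gy. In these libraries 3 reads were worth 0.0518, 0.0544 and 0.0894 CPM. Red blood cell genes were called in 0 of 8 cases by limma, yet their sum ran from 6490 to 13900 CPM at 8 Gy and from 15500 to 30100 CPM at 4 Gy. What part the makeup of the dissected tissue, as read from heart muscle and blood, had in the epithelial and vessel differences was not tested.

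Among immune cells, most alveolar macrophage genes were lower at 8 Gy. Of 15 alveolar macrophage genes, 9 fell and 1 rose (median -0.79, and -0.85 with replicate 1 alone at 4 Gy). Without 4 Gy replicate 3, 5 of them fell. Their summed level overlapped between doses, at 1160 to 1380 CPM in the 8 Gy libraries and 1330 to 1900 CPM in the 4 Gy libraries. Under IgG limma called 0 of the 15, with a median of 0.01, where it called 7.58% of all tested genes. Plet1, a surface protein gene, measured 59, 65.9 and 54.7 CPM at 8 Gy and 140, 97.7 and 125 CPM at 4 Gy (-1.0 ± 0.17, adjusted p = 0.00306), and Krt79, a keratin gene, fell by 1.35 ± 0.31. Pparg, the nuclear receptor that specifies alveolar macrophages and is also active in other lung cells, rose by 0.83 ± 0.16. Car4, among these falls, also stands in the endothelial list. Of 20 monocyte and macrophage genes only the scavenger receptor gene Msr1 was called, at 128, 102 and 84 CPM in the 8 Gy libraries and 69.2, 34.2 and 40.7 CPM in the 4 Gy libraries.

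Lymphocyte lists showed few calls. Of 24 general T cell genes, 2 rose and none fell: the costimulatory receptors Icos, by 1.03 ± 0.31, and Cd28, by 1.04. Of 20 genes of cytotoxic T and natural killer (NK) cells, 3 rose and none fell: the receptor genes Klrc1 (1.22 ± 0.34) and Klrd1 (1.22), and the granzyme gene Gzmc (0.96). These shares, like those of the next lists, are under the background of rises. In the checkpoint and regulatory T cell list 3 of 20 rose, namely Ikzf2, a transcription factor of regulatory T cells (1.23 ± 0.35), Havcr2, which encodes the inhibitory receptor TIM-3 (0.68 ± 0.22), and Icos. The antibody's target gene Pdcd1 was not called, at 33.6, 51.9 and 23.6 CPM in the 8 Gy libraries and 13, 32.1 and 35.8 CPM in the 4 Gy libraries (0.48 ± 0.43, adjusted p = 0.382). Ifng measured 11.6, 12.1 and 3.85 CPM at 8 Gy and 3.2, 7.9 and 20.2 CPM at 4 Gy, so each dose held both high and low libraries (0.02 ± 0.57, adjusted p = 0.985). Of 18 B and plasma cell genes 2 fell, Mzb1 by 1.39 and Cd79a by 1.43, and of 14 dendritic cell genes 1 fell, Batf3 by 1.16. Of 15 neutrophil genes, Trem1 (0.80) and S100a8 (1.61) rose, while the granule protein genes Ltf and Lcn2 fell by 2.32 and 1.42. Each of these lymphocyte, dendritic cell and neutrophil calls except Ltf was lost when 1 of at least 3 libraries was left out, 8 Gy replicate 1 among them in every case: without it the adjusted p was 0.0637 for Icos, 0.158 for Cd28, 0.0666 for Klrc1, 0.195 for Klrd1, 0.112 for Gzmc, 0.0633 for Ikzf2, 0.102 for Havcr2, 0.0901 for Mzb1, 0.0948 for Cd79a, 0.0728 for Batf3, 0.0731 for Trem1, 0.143 for S100a8 and 0.104 for Lcn2.

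Genes of cell division were higher at 8 Gy. Mitosis genes act in the spindle, the kinetochore and the mitotic kinases, and of 29 tested 21 rose and none fell, all 29 being on the higher side, with a median of 0.75. Nusap1, a spindle microtubule protein gene (mm10, chromosome 2, 119618298 to 119651244, plus strand), measured 47.2, 40.8 and 44.9 CPM at 8 Gy and 22.3, 21.3 and 15.6 CPM at 4 Gy, for a log2 fold change of 1.16 ± 0.15 (adjusted p = 0.00261). Mki67, the proliferation marker, measured 285, 313 and 310 CPM at 8 Gy and 214, 178 and 138 CPM at 4 Gy (0.80 ± 0.15, adjusted p = 0.00325). For both genes the 8 Gy libraries lay close together and the 4 Gy libraries, replicate 3 lowest, were all below them. Cenpe, a kinetochore motor gene, rose by 0.93 ± 0.13, Hmmr, a spindle-associated hyaluronan receptor gene, by 1.23 ± 0.18, and Prc1, which bundles microtubules for cytokinesis, by 0.75 ± 0.12.

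The mitosis list summed to 2190, 2140 and 2190 CPM in the 8 Gy libraries and 1430, 1480 and 1190 CPM in the 4 Gy libraries. The unirradiated libraries held 1730 to 2130 CPM. Thus the 8 Gy libraries sat just above the unirradiated range, and the 4 Gy libraries below it. With replicate 1 as the sole 4 Gy library, all 29 members were again on the higher side and the median was 0.60. DNA replication genes rose in 11 of 28 cases and fell in none (median 0.32). Mcm6, a subunit of the replicative helicase, measured 190, 183 and 186 CPM at 8 Gy and 122, 122 and 93.9 CPM at 4 Gy, and the ribonucleotide reductase genes Rrm1 and Rrm2 rose by 0.80 ± 0.13 and 0.96 ± 0.17.

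The promoters of the 4 mitosis genes with the lowest p are shown because genes that peak in mitosis are known for a shared promoter element, the cell cycle genes homology region (CHR, here TTTGAA), which often stands with CCAAT boxes. Each window runs from 250 bases before to 50 after the transcript start in RefSeq (GRCm38.p6), written on the gene's strand, with both motifs searched on both strands and matches in capitals (ATTGG is CCAAT read on the other strand). Nusap1 is at chr2:119618048-119618347 (plus strand), Cenpe at chr3:135212313-135212612 (plus), Hmmr at chr11:40733388-40733687 (minus) and Prc1 at chr7:80294201-80294500 (plus, the first of 2 overlapping windows).
Nusap1: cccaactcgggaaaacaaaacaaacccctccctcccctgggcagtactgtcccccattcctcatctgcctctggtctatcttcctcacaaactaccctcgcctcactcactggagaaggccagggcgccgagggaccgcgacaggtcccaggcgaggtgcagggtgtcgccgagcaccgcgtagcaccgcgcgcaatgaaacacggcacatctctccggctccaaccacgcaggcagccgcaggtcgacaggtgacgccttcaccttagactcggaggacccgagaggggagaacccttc
Cenpe: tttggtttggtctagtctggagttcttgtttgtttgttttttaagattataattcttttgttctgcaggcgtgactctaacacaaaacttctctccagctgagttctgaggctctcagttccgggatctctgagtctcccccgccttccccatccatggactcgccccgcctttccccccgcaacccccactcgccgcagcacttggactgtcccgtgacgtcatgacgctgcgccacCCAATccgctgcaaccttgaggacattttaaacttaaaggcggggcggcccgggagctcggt
Hmmr: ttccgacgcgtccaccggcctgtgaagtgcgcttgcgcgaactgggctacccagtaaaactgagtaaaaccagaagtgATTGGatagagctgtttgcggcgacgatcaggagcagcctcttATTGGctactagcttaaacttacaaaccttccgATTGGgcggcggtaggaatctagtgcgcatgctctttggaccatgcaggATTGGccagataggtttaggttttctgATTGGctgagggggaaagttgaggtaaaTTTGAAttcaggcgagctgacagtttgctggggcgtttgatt
Prc1: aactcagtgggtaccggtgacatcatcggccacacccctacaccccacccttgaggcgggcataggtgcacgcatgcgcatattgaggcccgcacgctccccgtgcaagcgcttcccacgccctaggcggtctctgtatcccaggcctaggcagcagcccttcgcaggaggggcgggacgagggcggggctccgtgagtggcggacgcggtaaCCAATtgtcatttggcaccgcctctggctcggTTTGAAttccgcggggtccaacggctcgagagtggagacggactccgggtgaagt
Hmmr held 1 CHR and 5 CCAAT boxes, Prc1 1 of each and Cenpe 1 CCAAT box alone, while the Nusap1 window held neither set of letters. Of the 25 mitosis genes with a window, 19 held a CHR (76.0%), 21 a CCAAT box (84.0%) and 18 both (72.0%). Among the 11848 tested genes with a window, 15.1% held a CHR, 42.3% a CCAAT box and 7.26% both. Of the 22 DNA replication genes with a window, 3 held a CHR (13.6%) and 13 a CCAAT box (59.1%).

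**Figure D2:**
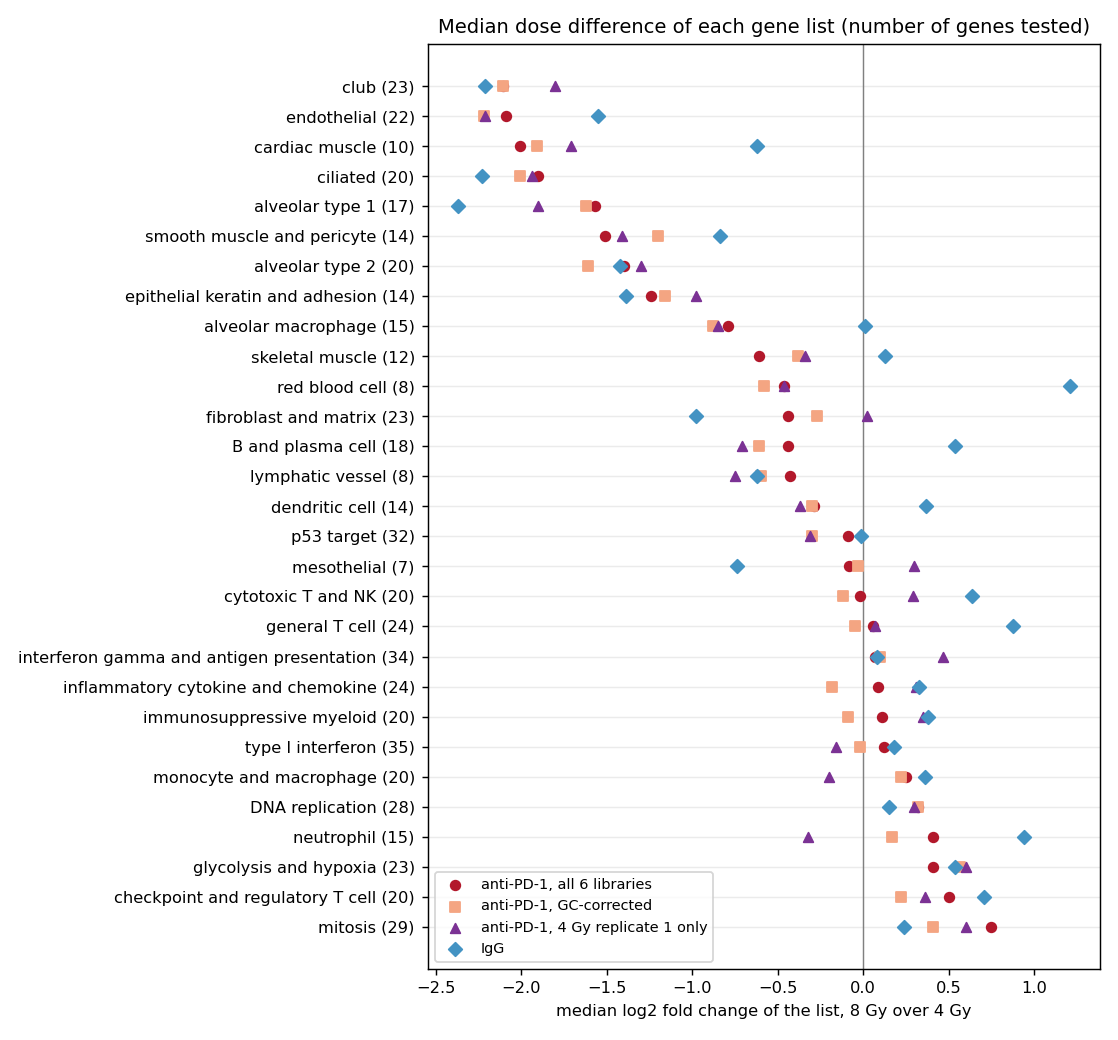
Median log2 fold change, 8 Gy over 4 Gy, of each cell type and pathway list (rows, with the number of genes tested) under anti-PD-1 with all 6 libraries, with GC-corrected values, with replicate 1 as the sole 4 Gy library, and under IgG. Club, endothelial, heart muscle and ciliated genes are at the low end, from -2.11 to -1.90 with all 6 libraries, and mitosis is at the high end at 0.75.

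Targets of p53 split. Of 32 tested, 10 fell and 4 rose, and the median was -0.09. Cdkn1a, whose product p21 blocks cyclin-dependent kinases (mm10, chromosome 17, 29090976 to 29100727, plus strand), measured 125, 136 and 130 CPM at 8 Gy and 189, 228 and 281 CPM at 4 Gy. The doses did not overlap, and the log2 fold change was -0.82 ± 0.17 (adjusted p = 0.0039). Unirradiated libraries held 40.5 to 62.8 CPM, below both doses, so the higher dose carried the smaller excess over them. Phlda3, an inhibitor of Akt, fell by 1.00 ± 0.16, Dcxr, a sugar reductase gene, by 1.66 ± 0.25, and the pro-apoptotic genes Bax and Bbc3, the second of which encodes PUMA, by 0.98 ± 0.16 and 1.24 ± 0.25. The 4 that rose were Pmaip1, which encodes the pro-apoptotic NOXA (1.13), Trp53inp1 (1.12), the DNA polymerase gene Polk (0.83) and the cyclin gene Ccng1 (0.51). Without 4 Gy replicate 3 none of these 4 was called, without 8 Gy replicate 1 there was 1 rise, and without 4 Gy replicate 2 there were 2. Trp53 itself was not called, at 42.3, 56 and 38.2 CPM in the 8 Gy libraries and 63.7, 53.7 and 72.9 CPM in the 4 Gy libraries (adjusted p = 0.0667). With replicate 1 alone at 4 Gy, Cdkn1a had a log2 fold change of -0.54 and the list a median of -0.31.

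Interferon genes moved little as lists. Of 35 type I interferon genes 9 rose and 1 fell (median 0.12), and of 34 genes for interferon gamma and antigen presentation 4 rose and none fell (median 0.07). The share of rises was close to the background for the first list and under it for the second. Of the type I list, 2 genes rose without 8 Gy replicate 1 or without 4 Gy replicate 2, 3 without 4 Gy replicate 3 and 5 without 8 Gy replicate 2. Tgtp1, an interferon-induced GTPase gene (mm10, chromosome 11, 48985327 to 48994172, minus strand), was among the 5 rises of lowest p of all genes, at 367, 358 and 294 CPM in the 8 Gy libraries and 110, 129 and 113 CPM in the 4 Gy libraries. That is a log2 fold change of 1.53 ± 0.20 (adjusted p = 0.00261), with no overlap, and 1.61 with replicate 1 alone at 4 Gy. The related GTPase genes Iigp1 and Irgm1 rose by 1.31 ± 0.33 and 0.84 ± 0.21. B2m, the light chain gene of class I antigen-presenting molecules, measured 2760, 3290 and 2860 CPM at 8 Gy and 1870, 1530 and 1660 CPM at 4 Gy. Ifi211, a DNA sensor family gene outside both lists, rose by 0.93 ± 0.13. In the type I list, Dtx3l and its partner Parp9, which overlap each other in the genome, rose by 0.79 ± 0.20 and 0.60 ± 0.16 and the RNA sensor gene Ifih1 by 0.86 ± 0.24, whereas Oas1b, a relative of the RNase L activators, fell by 0.94 ± 0.26. Ifih1 lost its call without 8 Gy replicate 1 or 4 Gy replicate 2 or 3 (adjusted p = 0.061 to 0.0675), and Oas1b without 4 Gy replicate 3 (0.0501). Cd274, the gene of the ligand PD-L1, was not called, at 106, 106 and 73.1 CPM in the 8 Gy libraries and 78.7, 75.6 and 112 CPM in the 4 Gy libraries (adjusted p = 0.656).

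The Tgtp1 promoter is shown because the gene led the interferon lists and its window holds the interferon-stimulated response element (ISRE, searched on both strands as GAAA, any 2 bases and GAAA). It lies at chr11:48992197-48992496 on the minus strand (RefSeq, GRCm38.p6), with the match in capitals.
Tgtp1: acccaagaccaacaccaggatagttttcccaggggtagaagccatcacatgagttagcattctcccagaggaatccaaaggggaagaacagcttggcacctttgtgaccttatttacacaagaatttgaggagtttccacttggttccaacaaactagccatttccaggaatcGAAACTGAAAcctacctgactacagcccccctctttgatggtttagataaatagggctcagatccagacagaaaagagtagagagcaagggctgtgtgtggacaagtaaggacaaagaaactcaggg
Of the 25 genes of the interferon gamma list with a window, 11 held such a match (44.0%), as did 12 of 23 in the type I list (52.2%), against 3.93% of tested genes.

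Glycolysis and hypoxia genes were higher at 8 Gy in 9 of 23 cases and lower in 1, and 21 of 23 were on the higher side (median 0.41). Egln3, the hypoxia-induced prolyl hydroxylase gene, measured 68.8, 51.1 and 51.9 CPM at 8 Gy and 18.6, 19.4 and 17.1 CPM at 4 Gy, and the log2 fold change was 1.60 ± 0.31 (adjusted p = 0.00361). Pdk1, which diverts pyruvate from the mitochondria, rose by 1.14 ± 0.22, the glycolytic enzyme genes Hk2 and Pgam1 by 0.62 ± 0.12 and 0.85 ± 0.18. The fall was Vegfa, the vascular growth factor gene, which also stands in the type 1 list, at 103, 210 and 199 CPM at 8 Gy and 541, 256 and 303 CPM at 4 Gy (-1.09 ± 0.35, adjusted p = 0.0221). This call was lost without replicate 1 of 8 Gy (adjusted p = 0.11) or of 4 Gy (0.0837). With replicate 1 alone at 4 Gy the list's median was 0.60, and 22 of 23 genes were on the higher side.

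Among genes of immunosuppressive myeloid cells 3 of 20 rose and 2 fell, both shares being under the background. Arg1, the arginase that depletes arginine around T cells, measured 345, 275 and 365 CPM at 8 Gy and 152, 74.7 and 132 CPM at 4 Gy, without overlap (1.51 ± 0.37, adjusted p = 0.00689), and the arginine transporter gene Slc7a2 rose by 0.71 ± 0.19. Retnla, a marker of alternatively activated macrophages, fell by 1.98 ± 0.45. The other rise and fall of that list were S100a8 and Vegfa. Slc7a2 lost its call without 8 Gy replicate 1 (adjusted p = 0.0511). Of 24 cytokine and chemokine genes 2 rose, Il33 and Il1a (1.30 ± 0.40), and 2 fell, the stromal chemokine gene Cxcl12 by 1.07 ± 0.25 and Tnf by 0.79 ± 0.30 (adjusted p = 0.0487). For this list too both shares were under the background. Tnf kept its call only without 4 Gy replicate 1 among the fits that left out a library, and Il1a lost it without 8 Gy replicate 1 or 4 Gy replicate 2 or 3 (adjusted p = 0.0768 to 0.0995). Il1b was not called, at 45, 59.7 and 58 CPM in the 8 Gy libraries and 50.1, 36.1 and 47.7 CPM in the 4 Gy libraries.

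Outside the lists, the lowest p of all genes belonged to a pair of falls. Kcnk3, the potassium channel gene TASK-1, measured 1, 1.2 and 0.864 CPM at 8 Gy and 4.33, 4.47 and 4.89 CPM at 4 Gy (-1.74 ± 0.18, adjusted p = 0.00136). Trim29, an epithelial ubiquitin ligase gene, measured 5.12, 5.81 and 5.28 CPM at 8 Gy and 18.9, 21.8 and 24 CPM at 4 Gy (-1.90 ± 0.20, adjusted p = 0.00136). In both, the libraries of a dose agreed closely. Gpx3, the secreted glutathione peroxidase gene, fell by 2.29 ± 0.27, Ypel3 by 1.40 ± 0.17 and Lpcat1, which makes surfactant phospholipid, by 1.03 ± 0.13. The largest falls included mt-Atp8, a mitochondrial ATP synthase gene (-3.59 ± 0.88), Lrrc23 (-3.27 ± 0.76), the gastrointestinal glutathione peroxidase gene Gpx2 (-3.17 ± 0.53) and the growth factor receptor gene Fgfr4 (-3.07 ± 0.63). The largest rises were led by the ribosomal protein pseudogenes Rpl9-ps4 (2.82 ± 0.69) and Rpl7-ps7 (2.79 ± 0.70), which may share reads with their parent genes and other copies. Others among them were Serpina7, the thyroxine-binding globulin gene (2.67 ± 0.65), Trim59 (2.43 ± 0.58), Sptssb, a subunit of the enzyme that starts sphingolipid synthesis (2.36 ± 0.50), and the glucuronosyltransferase gene Ugt2b34 (2.35 ± 0.44). Rpl9-ps4 rested on the 4 Gy libraries 2 and 3, with 16.4, 19.4 and 20.1 CPM at 8 Gy and 10.7, 2.2 and 0.156 CPM at 4 Gy, and with replicate 1 alone its log2 fold change was 0.77. So did Rpl7-ps7, with 30.3, 14.7 and 17 CPM at 8 Gy and 11.1, 1.11 and 0.811 CPM at 4 Gy, and 0.80 with replicate 1 alone. For mt-Atp8, at 9.02, 17.1 and 10.8 CPM in the 8 Gy libraries and 51.7, 240 and 263 CPM in the 4 Gy libraries, the value with replicate 1 alone was -2.08. With that library alone Serpina7, Trim59 and Ugt2b34 stood at 1.62, 1.62 and 1.64.

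Rises and falls differed in base composition. The median GC content of the longest annotated transcript was 44.3% among rises, 54.5% among falls and 49.8% among all tested genes. From the lowest to the highest decile of genes by GC, the median log2 fold change under anti-PD-1 ran from 0.83 to -0.47, with replicate 1 alone at 4 Gy from 0.43 to -0.34, and under IgG from 0.05 to -0.20. In the lowest decile, the median deviation from the mean of all libraries was 0.42, 0.21 and 0.04 in the 8 Gy libraries and -0.19, -0.74 and -0.87 in the 4 Gy libraries. The values were therefore also tested after a GC correction within each library, an alternative chosen after seeing the data. That gave 2488 rises (14.2%) and 3052 falls (17.4%), in place of 4278 and 3062. Of the rises 1732 (40.5%) were called again in the same direction, and of the falls 2232 (72.9%).

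The lists separated under that correction. Falls were called in 22 of 23 club, 16 of 20 type 2, 15 of 17 type 1, 17 of 20 ciliated and 21 of 22 endothelial genes, and rises in 19 of 29 mitosis, 11 of 28 replication and 13 of 23 glycolysis and hypoxia genes. The mitosis list, whose median GC is 46.6%, had a median log2 fold change of 0.41 after the correction. Of the type I interferon list 0 of 35 rose and 1 fell, where 9 rose before it, and of the interferon gamma list only Tgtp1 was still called, at 0.98 (adjusted p = 0.0126). Among p53 targets 8 fell and 1 rose. Cdkn1a stayed lower, at -0.61 (adjusted p = 0.0112), and Bax lost its call at -0.29 (adjusted p = 0.0728). Ccng1, a rise before, turned to -0.24 (adjusted p = 0.136). Prc1, Rrm1, Iigp1, Irgm1, B2m, Ifi211, Msr1, Slc7a2 and Il1a also lost their calls, with log2 fold changes of 0.09 to 0.59. So did Sema3e, Flt4, Icos, Cd28, Klrc1, Klrd1, Ikzf2, Havcr2, Mzb1, Cd79a, Batf3, Trem1, S100a8, Lcn2, Pmaip1, Trp53inp1, Polk, Dtx3l, Parp9, Ifih1 and Tnf, while Gzmc kept its call at an adjusted p that rounds to 0.05. Other rises kept their call at a smaller size: Nusap1 at 0.48, Cenpe at 0.33, Hmmr at 0.55 and Il33 at 0.51. The falls of Phlda3 and Bbc3 were -0.35 and -0.47, still called. Among the largest rises, Serpina7 stood at 1.80, Sptssb at 1.47, Trim59 at 1.5 and Ugt2b34 at 1.49, while the fall of mt-Atp8 was -4.77. What part base composition had in the remaining differences was not tested.

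**Figure D3:**
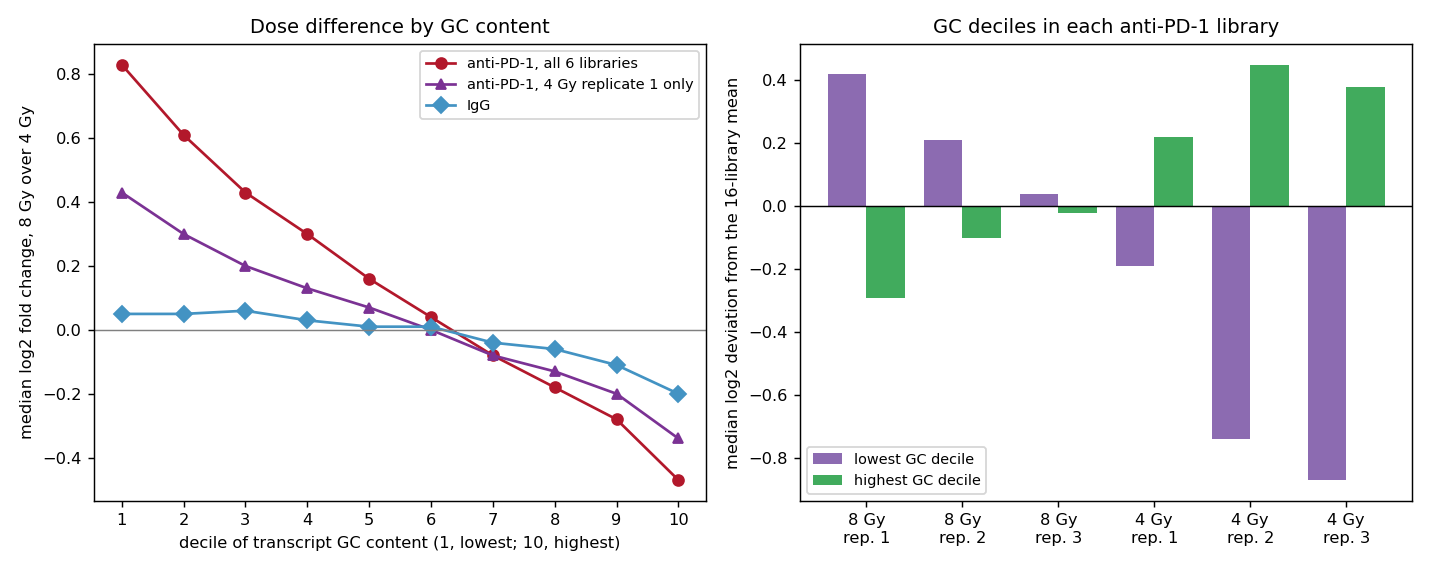
Left, median log2 fold change, 8 Gy over 4 Gy, in each decile of genes by GC content under anti-PD-1 with all 6 libraries, with replicate 1 as the sole 4 Gy library, and under IgG. Right, median log2 deviation from the mean of the 16 libraries in the lowest and highest GC decile for each anti-PD-1 library, where 4 Gy replicates 2 and 3 lie farthest from 0 at -0.74 and -0.87 in the lowest decile.

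The same dose step was taken under IgG in other libraries, which allows the dose difference to be set beside that under anti-PD-1. Under IgG, 288 genes were higher at 8 Gy (1.64%) and 1042 were lower (5.94%), with 3 and 2 libraries. Called in both antibody arms were 678 falls, which is 22.1% of the anti-PD-1 falls and 65.1% of the IgG falls, and 58 rises, which is 1.36% and 20.1%. Over all tested genes 17.5% fell and 24.4% rose under anti-PD-1. The shared falls were thus above the background of either arm, and the shared rises were slightly under it. Both arms share falls of the epithelium: under IgG 13 of 23 club, 11 of 20 type 2, 13 of 17 type 1 and 12 of 20 ciliated genes fell. Falls under IgG were called in 5 of 22 endothelial, 3 of 14 smooth muscle and pericyte and 0 of 10 heart muscle genes. Their medians there were -1.55, -0.84 and -0.62. Fewer genes of all kinds were called under IgG, so these counts do not test a difference between the arms. Scgb1a1 measured 414, 633 and 628 CPM at 8 Gy and 5160 and 3710 CPM at 4 Gy under IgG, a log2 fold change of -3.0 ± 0.64 (adjusted p = 0.015), and the dose differences of the 2 arms differed by 0.83 ± 0.85 (adjusted p = 0.543). Ager under IgG fell by 3.46 ± 0.48 and Ccl21a by 3.60 ± 0.32. Hk2, Arg1 and Il33 rose in both arms, under IgG by 0.56 ± 0.14, 2.30 ± 0.41 and 0.74 ± 0.19.

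Whether the dose difference itself differs between antibodies was tested as an interaction (anti-PD-1 minus IgG) over all 17546 genes. limma called 0 (0.0%), the lowest adjusted p was 0.0604, and 4801 genes (27.4%) had an unadjusted p under 0.05. With replicate 1 as the sole anti-PD-1 4 Gy library this test has little power, so no p-value is read from it. Other fits called more: 3380 genes without anti-PD-1 4 Gy replicate 1, 1526 in a fit of the 11 irradiated libraries alone and 5554 with array quality weights. Genes of low p in that test are given as values. Cdkn1a was on the higher side at 8 Gy under IgG, at 189, 201 and 176 CPM against 132 and 144 CPM at 4 Gy, so the 2 arms pointed in opposite directions (difference of the log2 fold changes -1.26 ± 0.25, adjusted p = 0.0604). Il1b measured 132, 165 and 158 CPM at 8 Gy and 29.8 and 37.7 CPM at 4 Gy under IgG, a rise of 2.16 ± 0.26 there (difference -1.87 ± 0.34, adjusted p = 0.0604). Vcam1, an adhesion molecule gene of activated endothelium, measured 357, 418 and 380 CPM at 8 Gy and 151, 179 and 166 CPM at 4 Gy under anti-PD-1, a rise of 1.22 ± 0.21. Under IgG it measured 237, 198 and 316 CPM at 8 Gy and 417 and 388 CPM at 4 Gy, and the difference was 1.93 ± 0.31. After the GC correction Vcam1 lost its call under anti-PD-1, at 0.43 (adjusted p = 0.22).

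Casp12, an inflammatory caspase family gene (mm10, chromosome 9, 5345430 to 5373032, plus strand), measured 22.6, 20.5 and 17.1 CPM at 8 Gy and 6.41, 8.11 and 5.01 CPM at 4 Gy under anti-PD-1. Under IgG it measured 8.69, 9.86 and 12.4 CPM at 8 Gy and 12.5 and 11.1 CPM at 4 Gy, where the doses overlapped (difference 1.77 ± 0.29, adjusted p = 0.0604). Under anti-PD-1 its log2 fold change was 1.57 before and 0.63 after the GC correction (adjusted p = 0.0379). Rab44, a small GTPase gene, fell by 1.74 ± 0.33 under anti-PD-1 and differed by 1.26 ± 0.36 under IgG (adjusted p = 0.0504). Ramp3, a co-receptor for adrenomedullin, fell by 1.22 ± 0.28 under anti-PD-1 and rose by 1.35 ± 0.32 under IgG, and Dcbld1, a membrane protein gene, rose by 0.92 ± 0.19 under anti-PD-1 and fell by 0.96 ± 0.22 under IgG. After the GC correction Dcbld1 lost its call under anti-PD-1, at 0.44 (adjusted p = 0.0945). Tgtp1 differed by 0.19 ± 0.22 between doses under IgG, and while the anti-PD-1 4 Gy libraries held 110 to 129 CPM, all 5 irradiated IgG libraries held 174 to 243 CPM. Mitosis genes were called in 0 of 29 cases under IgG by limma, with a median of 0.24. Only 1.64% of all tested genes rose there, with 2 libraries at 4 Gy, so 0 of 29 is near the background. The difference between antibodies had an adjusted p of 0.0652 for Nusap1 and 0.0983 for Mki67.

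**Figure D4:**
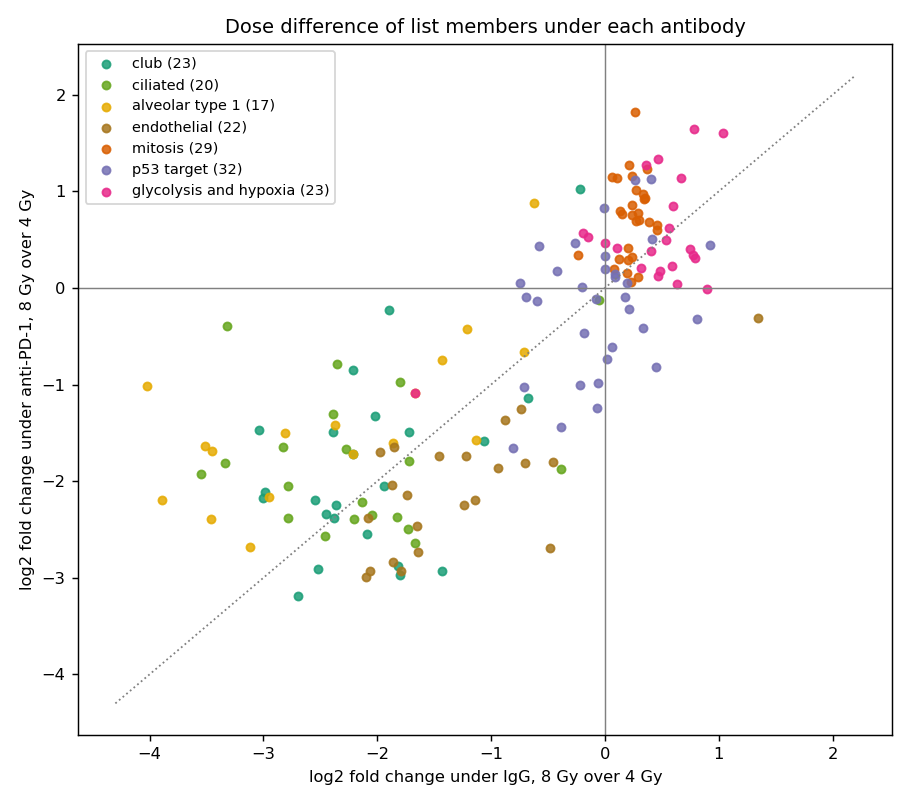
Log2 fold change, 8 Gy over 4 Gy, of the members of 7 lists under anti-PD-1 (vertical) against that under IgG (horizontal); each point is a gene and the dotted line marks equal values. Club, ciliated, alveolar type 1 and endothelial genes lie mostly in the lower left, and mitosis genes lie mostly above the line, at 0.06 to 1.82 under anti-PD-1 and -0.24 to 0.46 under IgG.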

How the data were processed

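The 16 libraries of pooled lungs, assayed by RNA sequencing, were grouped by their titles. The deposited table gives CPM (reads scaled to each library's total) for 30095 genes, to which the authors had added 1e-04. Per the labels' protocols, libraries were made with the TruSeq RNA kit, and STAR and Partek were used on mm10, per the submitters' processing notes. Not given in the sources used here are versions, annotation, counting and strand settings. Whole reads could not be recovered, since only 57.9 to 63.8% of low values were whole within 0.02 of a read, so no count model was used. The worth of a read ran from 0.01551 to 0.0418 CPM, and a floor of 3 reads was at most 0.1254 CPM, which covers counting error only.

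All 16 libraries entered one limma 3.58.1 fit (R 4.3.3, trend and robust) of 6 group means on log2(CPM + 0.5), over the 17546 genes that reached 1 CPM in 2 or more libraries. This scale understates the change of low genes. Fold changes are 8 Gy minus 4 Gy with their SE, and adjusted p-values are Benjamini-Hochberg values over all tested genes with a threshold of 0.05. Gene lists are described by counts and medians only. The groups, lists and tests were chosen with earlier results of these data known. Named genes are the 10 largest rises and falls and the 5 lowest p in each direction, as far as they fit the text. These had a mean of 1 or more on the log2 scale. The lowest p were taken with all libraries, with replicate 1 as the sole 4 Gy library, and for the difference between antibodies. From each list came as many as 4 members of lowest p, at any mean (0.66 for Myh6, 0.51 for Myl7 and -0.17 for Sln). Also named are Cdkn1a, Mki67, Scgb1a1, Pdcd1, Cd274, Ifng, Trp53, Arg1 and Il1b. Gsta4, Sema3e, Npnt, Flt4, Trem1, S100a8, Ltf, Lcn2, Cd28, Gzmc, Klrd1, Batf3, Mzb1, Cd79a, Pmaip1, Trp53inp1, Polk and Ccng1 were named after their values were seen, to complete small counts.

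Positions and GC content came from GENCODE M21 (29799 positions matched) and promoters from RefSeq. Reads of overlapping genes cannot be told apart without strand. Among the named genes Hopx, Rsph1, Plvap, Ccl21a, Prox1, Mfap4, Tagln, Myh6, Plet1, Trem1, Mzb1, Nusap1, Prc1, Cdkn1a, Tgtp1, B2m, Ifi211, Dtx3l, Parp9, Cd274, Il1b, Gpx2, Rab44 and Jun overlap another gene. The search for overlaps did not cover mitochondrial genes such as mt-Atp8, nor overlaps with genes whose names begin with Gm. Tgtp1, Ccl21a and the ribosomal pseudogenes have near-identical copies. The procedure was tested on simulated data, with noise drawn independently for each gene and library. This checked the code only and does not bear on the calls given here. Alternatives were other scalings, pseudocounts, filters, fits with fewer libraries, a replicate block, array quality weights and, added after seeing the data, a loess correction of each library for GC content.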

Additional observations from a re-analysis of the deposited data

How the results depend on the processing

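The 7340 genes called under anti-PD-1 (4278 rises, 3062 falls) ranged from 6329 to 9595 across the other scalings, pseudocounts, filters, weights and fits that kept all 6 libraries and made no GC correction. With library medians set equal, falls outnumbered rises (3566 rises, 3712 falls). Leaving out a library in turn gave 3934 to 8404 calls, 2053 to 5203 rises, 1823 to 3201 falls and 171 to 276 called list members (247 of 621 with all 6). Without anti-PD-1 4 Gy replicates 2 and 3, with or without the GC correction, there were 0 calls, 0 rises, 0 falls and 0 list members, in a fit that leaves a lone 4 Gy library assumed to vary like the other groups. Those fits have little power, so their 0 calls do not show that a difference is absent. GC-corrected values gave 2488 rises. The difference between antibodies was called for 5554 genes with array quality weights, 1526 with only the compared libraries and 1 with GC correction, and for 0 to 3380 when a library was left out.

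The replicate numbers did not pair the anti-PD-1 libraries: same-numbered libraries deviated together by correlations of 0.308, -0.11 and 0.14. With a replicate block there were 6630 calls (3834 rises, 2796 falls), 228 list members and 0 differences between antibodies.

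Of 109 called genes checked, 69 kept call and sign in all 17 alternatives other than those without replicates 2 and 3. The genes checked were those named here except Jun, Krt19 and Sln, with Arhgap5 and Ctsk, which are not described above, added. Signs turned for the following genes. Ifng stood at -0.07 with equal medians, -0.54 with GC correction and -0.60 to 0.65 when a library was left out. With GC correction Cd274 was -0.34, Il1b -0.05 and Ccng1 -0.24. Without replicates 2 and 3 Trem1 was -0.00. With both changes Ifih1 was -0.08, Il1b -0.04, Il1a -0.06, Trem1 -0.05, Batf3 0.12, Ccng1 -0.02 and Trp53inp1 -0.17. The cause was not tested. With 2 or 3 pools a group, the number of pools and the shallow 4 Gy replicate 2 limit precision.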

Other observations

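Lists of organelle and stress genes, and of 2 further tissues, gave these values for 8 Gy against 4 Gy under anti-PD-1. Of 13 mitochondrially encoded genes 0 rose and 1 fell (limma), with a median log2 fold change of -0.34, and after the GC correction 8 fell with a median of -1.30. The list's median GC content is 37.1%. All mitochondrial genes together took 5.543, 3.907 and 1.69% of CPM in the 8 Gy libraries and 5.721, 4.37 and 4.141% in the 4 Gy libraries, so 8 Gy replicate 3 was the lowest of the 6. Of 24 cytosolic ribosomal protein genes 2 rose and 9 fell (median -0.32), and of 20 nuclear-encoded respiratory chain genes 5 rose and 3 fell (median -0.10). With single libraries left out, 0 to 12 ribosomal protein genes and 0 to 6 respiratory chain genes fell, both 0 without 4 Gy replicate 2 or 3 and both highest without 4 Gy replicate 1. Of 12 skeletal muscle genes 3 fell, of 17 immediate early and heat shock genes only Jun fell, and of 7 mesothelial genes limma called 0, with none at an unadjusted p under 0.05 except Krt19.

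Genes annotated as processed pseudogenes made up 11.1% of the rises, 1.21% of the falls and 8.9% of all tested genes.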
